A study of Mus musculus with 4 samples.

Results

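The chromatin around 8 genes of the SOX family, *Sox1*, *Sox2*, *Sox4*, *Sox5*, *Sox6*, *Sox9*, *Sox11* and *Sox21*, was compared between 2 kinds of small cell lung cancer cell from the mouse. For each gene, all ATAC-seq peaks in its gene body and in the 100 kb on either side were taken, with gene models from GENCODE M21 on mm10. The 4 libraries together held 489558 peaks, of which 769 lay in the 8 gene windows. After peaks of different libraries that overlapped were merged, these made 566 regions out of 357570 in the genome, and the 8 genes were 8 of 21938 protein-coding genes with such a window.

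ATAC-seq cuts and tags DNA where chromatin is open, so that a peak marks a stretch accessible in the cells of that library. It does not measure transcripts. The cells were cultured as untreated lines after sorting from lung tumors of mice in which both floxed alleles of each of the tumor suppressor genes *Rb1* and *Trp53* (Rb1 L/L with Trp53 L/L) are deleted in the lung epithelium, so that all groups carried these deletions. The mice had a mixed background of C57Bl/6, Balb-c and S129. SCLC metastasizing cells (SMC) were sorted as NCAM hi CD44 lo/- and non-SMC as NCAM lo CD44 hi, with NCAM a neuroendocrine surface protein and CD44 a hyaluronan receptor. There were 2 SMC lines (SMC#1 and SMC#2) and 2 non-SMC lines (Non-SMC#1 and Non-SMC#2), with 1 library per line. The comparison asks how accessible chromatin differs between the cell types, each represented here by 2 cultured lines and not by freshly sorted tumor cells.

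SOX proteins are transcription factors that bind the minor groove of DNA through an HMG box and bend it, and they are grouped by the likeness of that box. SOX1 and SOX2 belong to the SoxB1 activators of neural and foregut progenitors, SOX21 is a SoxB2 repressor that opposes them, SOX4 and SOX11 are SoxC factors of neuronal and neuroendocrine differentiation, SOX5 and SOX6 are SoxD factors without an activation domain of their own, and SOX9 is a SoxE factor of chondrocytes, of neural crest and of distal lung epithelial progenitors. The core letters that the family recognizes are ACAAAG and ACAATG.

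Regions were sorted by the libraries in which they held a peak. A region is called SMC-only when both SMC lines had a peak there and the non-SMC lines had none, and non-SMC-only in the reverse case. Among the 566 regions around the SOX genes, 38 were SMC-only (6.71%, against 4.37% of all regions in the genome), 47 were non-SMC-only (8.30%, against 7.33%) and 14 were open in all 4 libraries (2.47%, against 3.81%). A single library accounted for 429 of the regions (75.8%, against 76.9% of all regions). The SMC-only share of single genes ranged from 0 at *Sox2* to 17.4% at *Sox11*, and the non-SMC-only share from 0 at *Sox21* to 18.8% at *Sox9*.

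The sequence under the leading regions is shown first, because the SMC-only and the non-SMC-only regions differed in the motifs they held. For each gene and kind, the region with the highest mean percentile of fold enrichment was taken if it lay outside exons and had a strong peak in both lines, where strong means a −log10 q of 5 or more in its own list, and the 201 bases around its summit were read from GRCm38.p6, the assembly of mm10, on the plus strand. For *Sox1*, the 200 bases before the start site are given instead. Capitals mark each ACAAAG or ACAATG (SOX) and each TGACTCA or TGAGTCA (AP-1), on either strand. In the SMC-only sequences all capitals are SOX letters.
Sox1 upstream, SMC-only, chr8:12395095-12395294: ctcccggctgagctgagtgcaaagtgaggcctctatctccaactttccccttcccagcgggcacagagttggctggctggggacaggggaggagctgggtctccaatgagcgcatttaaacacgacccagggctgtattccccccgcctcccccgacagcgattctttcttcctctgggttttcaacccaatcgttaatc
Sox4 SMC-only, chr13:28925829-28926029: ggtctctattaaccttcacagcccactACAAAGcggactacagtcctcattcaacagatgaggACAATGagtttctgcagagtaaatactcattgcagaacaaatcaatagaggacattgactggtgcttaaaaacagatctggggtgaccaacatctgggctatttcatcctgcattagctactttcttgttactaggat
Sox5 SMC-only, chr6:144224242-144224442: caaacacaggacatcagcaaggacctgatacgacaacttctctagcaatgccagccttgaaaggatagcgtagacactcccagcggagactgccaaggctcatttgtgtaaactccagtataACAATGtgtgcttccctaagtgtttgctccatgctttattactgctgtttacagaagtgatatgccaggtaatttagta
Sox6 SMC-only, chr7:115879774-115879974: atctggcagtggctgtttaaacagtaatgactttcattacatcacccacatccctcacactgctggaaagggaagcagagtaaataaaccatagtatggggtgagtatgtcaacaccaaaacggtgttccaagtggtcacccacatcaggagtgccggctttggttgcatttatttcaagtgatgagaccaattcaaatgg
Sox11 SMC-only, chr12:27357266-27357466: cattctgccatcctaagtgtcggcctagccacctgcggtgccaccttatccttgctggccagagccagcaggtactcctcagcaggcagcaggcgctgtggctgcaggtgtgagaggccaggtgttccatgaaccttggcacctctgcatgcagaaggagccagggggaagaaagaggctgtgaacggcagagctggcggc
Sox21 SMC-only, chr14:118230438-118230638: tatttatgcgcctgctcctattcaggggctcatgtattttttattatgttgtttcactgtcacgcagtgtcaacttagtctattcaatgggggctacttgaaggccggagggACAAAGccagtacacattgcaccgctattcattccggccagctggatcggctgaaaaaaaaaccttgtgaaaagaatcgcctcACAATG

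The *Sox4* and *Sox21* sequences each held 2 SOX matches and the *Sox5* sequence held 1, whereas those of *Sox1*, *Sox6* and *Sox11* held 0. The non-SMC-only sequences below were chosen in the same way, and each held an AP-1 match, with 2 in *Sox5*. The *Sox4* sequence also held 1 SOX match, seen from the other strand as CATTGT. The criterion of strong peaks left out the leading non-SMC-only regions of *Sox1*, *Sox6* and *Sox11*, which held 0, 0 and 1 AP-1 matches. The printed sequences are thus a selected set.
Sox2 non-SMC-only, chr3:34743717-34743917: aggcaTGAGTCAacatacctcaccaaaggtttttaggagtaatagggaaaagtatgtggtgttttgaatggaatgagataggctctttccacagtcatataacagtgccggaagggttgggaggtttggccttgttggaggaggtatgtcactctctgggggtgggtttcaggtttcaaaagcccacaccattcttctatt
Sox4 non-SMC-only, chr13:28917925-28918125: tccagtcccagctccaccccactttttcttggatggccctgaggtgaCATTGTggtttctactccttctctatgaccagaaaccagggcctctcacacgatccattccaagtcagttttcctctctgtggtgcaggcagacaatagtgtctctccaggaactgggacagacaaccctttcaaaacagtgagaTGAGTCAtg
Sox5 non-SMC-only, chr6:144074996-144075196: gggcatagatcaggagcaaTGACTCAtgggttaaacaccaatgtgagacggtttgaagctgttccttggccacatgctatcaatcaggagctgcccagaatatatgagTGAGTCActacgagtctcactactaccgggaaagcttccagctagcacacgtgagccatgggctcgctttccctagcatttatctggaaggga
Sox9 non-SMC-only, chr11:112758125-112758325: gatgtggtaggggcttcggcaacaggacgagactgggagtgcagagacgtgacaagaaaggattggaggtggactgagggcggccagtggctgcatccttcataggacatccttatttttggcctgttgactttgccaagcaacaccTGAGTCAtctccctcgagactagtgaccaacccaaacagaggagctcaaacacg

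AP-1 is the dimer of FOS and JUN proteins, and of the 4 motifs searched its letters differed most in share between the kinds of region around the SOX genes. Both its forms are read on both strands and are the reverse complement of each other. Of the 38 SMC-only regions 0 had an AP-1 match within 100 bp of the summit, where a count of 0 allows a share of up to 7.89%, taken as 3 of 38, and the exact interval reaches 9.25%. All SMC-only regions of the genome had one in 4.14%. Of the 47 non-SMC-only regions 25 did, which is 53.2% (95% exact binomial interval, 38.1 to 67.9%), against 46.5% of all non-SMC-only regions and 11.2% of all regions. The interval of the SOX windows contains the genome's share in both kinds, so these counts do not set the SOX genes apart from the genome. With only strong peaks, 20 of 24 non-SMC-only and 0 of 10 SMC-only regions had an AP-1 match. The genome's share among strong peaks is not given here, so these counts say nothing particular about the SOX genes.

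SOX letters themselves were found in 17 of 38 SMC-only regions (44.7%, interval 28.6 to 61.7%, against 40.5% of the genome's) and in 17 of 47 non-SMC-only regions (36.2%, interval 22.7 to 51.5%, against 27.4%). The intervals overlapped, so a difference in SOX matches was not detectable with these numbers of regions. The E-box CAGCTG, a form bound by bHLH factors, was present in 12 of 38 SMC-only regions (31.6%, interval 17.5 to 48.6%) and in 6 of 47 non-SMC-only regions (12.8%, interval 4.83 to 25.7%). The genome's shares were 21.1% and 14.0%. The TEAD letters GGAATG were present in 5 of 38 (13.2%, against 9.39%) and 10 of 47 (21.3%, against 19.3%). Counting intervals treat the regions as independent, although several lie in 1 gene, and a match of letters is not a bound site.

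**Figure D1:**
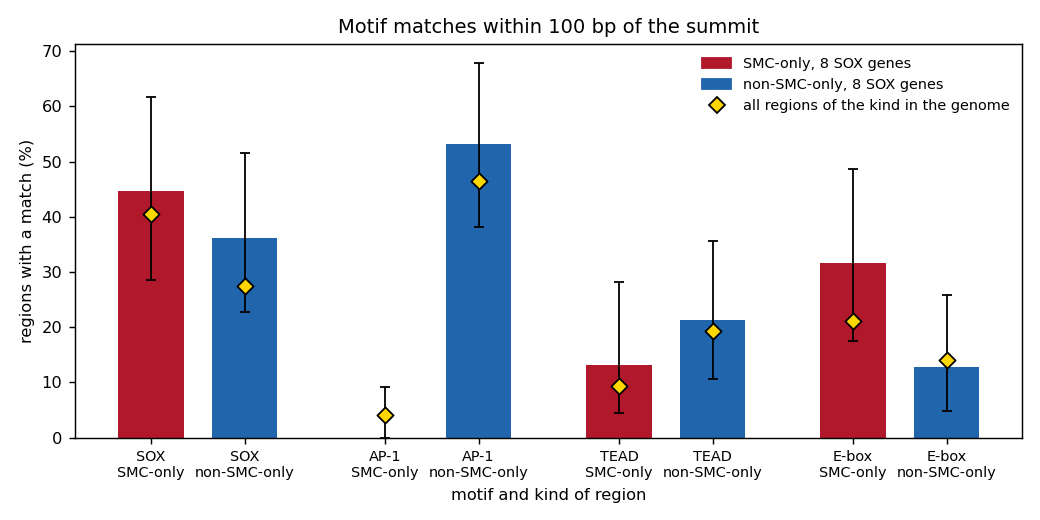
Share of SMC-only (red) and non-SMC-only (blue) regions around the 8 SOX genes with at least 1 match to a motif within 100 bp of the summit, in percent. Bars start at 0, error bars are 95% exact binomial intervals and diamonds give the share among all regions of that kind in the genome. AP-1 stands at 0 in SMC-only and 53.2% in non-SMC-only regions, and each diamond lies within its interval.

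How densely peaks lay around each gene was measured relative to the same list, as the peaks per base in the window divided by the peaks per base in the genome, so that 1 is the average of that library. By this measure both SMC lines lay above both non-SMC lines for 3 of the 8 genes (*Sox1*, *Sox6* and *Sox11*), where 20.2% of all gene windows had that order. For 1 gene (*Sox9*) both SMC lines lay below both non-SMC lines, the order of 20.2% of windows as well. The other 4 genes overlapped. The median log2 ratio of SMC over non-SMC was 0.29 over the 8 genes and 0.04 over all genes. With 2 lines against 2, the smallest two-sided p of an exact permutation test is 0.333, so differences are set against the SD between lines and no test between the cell types was made.

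**Figure D2:**
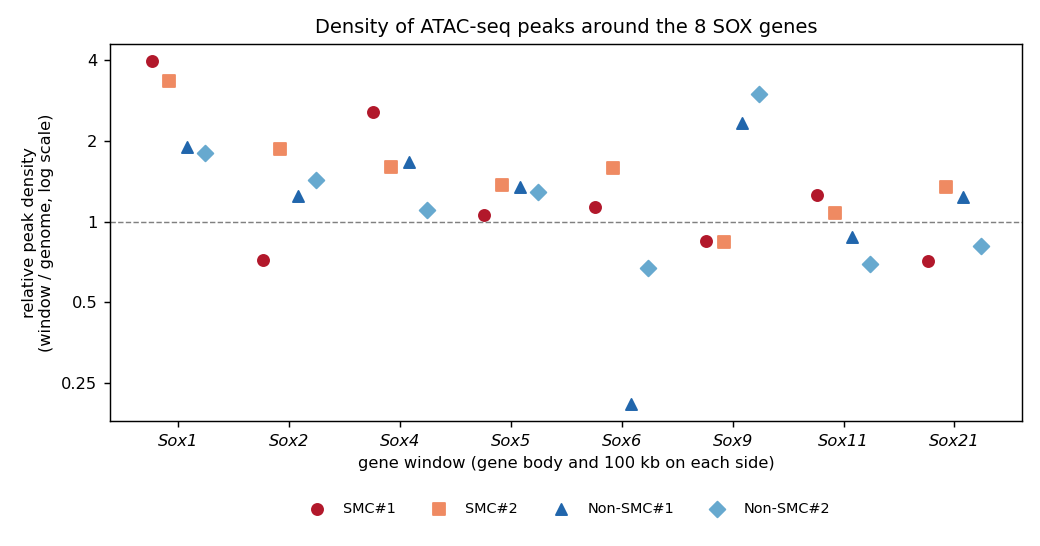
Relative peak density in the windows of the 8 SOX genes, on a log scale, with 1 point per library and the dashed line at 1, the average of that library's list. *Sox1*, *Sox6* and *Sox11* have both SMC lines (red) above both non-SMC lines (blue), *Sox9* has both below, and the points of *Sox2*, *Sox4*, *Sox5* and *Sox21* intermix.

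Promoters, taken as 3 kb on either side of the start site, were open in most cases in all lines. Peaks were present in all 4 libraries at 7 of the 8 SOX promoters, where 48.7% of all promoters had them. The promoter of *Sox1* was SMC-only, as 3.08% of promoters were, and 0 of the 8 were non-SMC-only, a class of 2.45%. A peak of any strength within 3 kb of the start counted, and it did not have to be the same region in each library. Only *Sox6* had a strong promoter peak in all 4 libraries. At *Sox9* and *Sox11*, 0 regions of the window were open in all 4. Presence alone thus hid differences between lines at these 2 promoters, described with those genes.

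**Figure D3:**
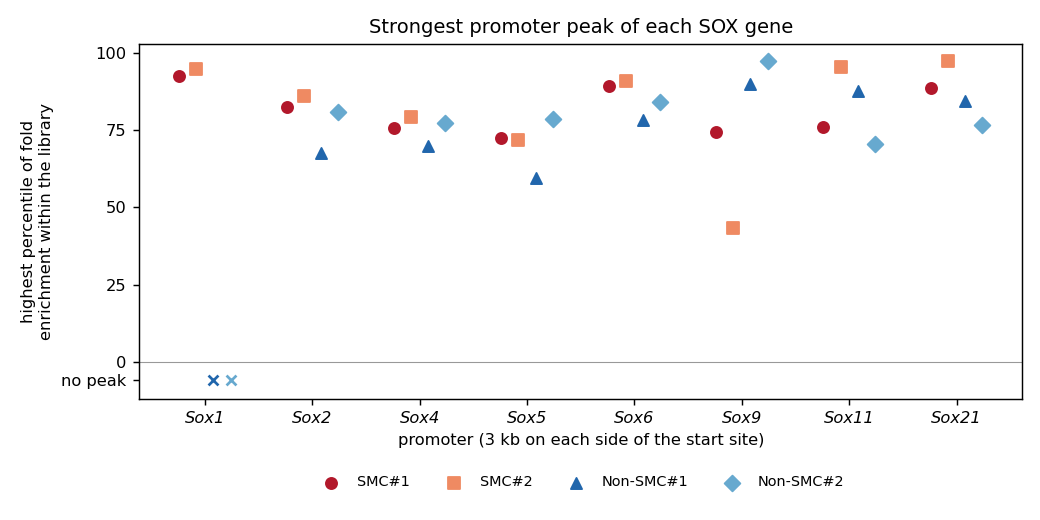
Percentile of fold enrichment, within its own library, of the strongest peak in each SOX promoter (3 kb on either side of the start site), with crosses for no peak. *Sox1* has points only for the SMC lines, at 92.6 and 94.9, and at *Sox9* both non-SMC lines (90.0 and 97.4) lie above both SMC lines (74.5 and 43.3).

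Among the SoxB1 genes, *Sox1* had one of the clearest differences. Its window held 28 peaks in SMC#1, 40 in SMC#2, 17 in Non-SMC#1 and 18 in Non-SMC#2. The relative densities were 3.97, 3.36, 1.90 and 1.81 in the same order. All 4 libraries were above the average of their lists, and both SMC lines were above both non-SMC lines. The SMC mean was 3.67 ± 0.436 (SD, n = 2) and the non-SMC mean 1.85 ± 0.0631 (SD, n = 2), a ratio of 1.98 and a log2 ratio of 0.99. The difference of 1.81 exceeded the pooled SD between lines of 0.311.

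Of the 74 regions around *Sox1*, 9 were SMC-only (12.2%) and 1 was non-SMC-only (1.35%). The SMC-only regions lay between 71.9 kb upstream and 5.88 kb downstream of the start site, 7 of them upstream. A pair flanked the start. One covered it in both SMC lines (chr8:12394980-12395341, percentiles 72.7 and 81.4), and the other lay 203 bp downstream in the part of the gene annotated as UTR (chr8:12395437-12396159). At the latter, fold enrichment was 7.39 in SMC#1 and 8.04 in SMC#2, the 92.6 and 94.9 percentile of their lists, and it was the strongest peak of the window in both lines. The bases before the start site printed above hold neither SOX nor AP-1 letters.

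Further upstream of *Sox1*, an intergenic SMC-only region at chr8:12349627-12350204, 45.2 kb from the start, had fold enrichments of 4.96 and 7.58. The strongest peak of both non-SMC lines was a different one, 21.9 kb downstream at chr8:12417071-12417510 in an intron of *Sox1ot*, with 10.6 and 6.49, where SMC#2 had a weaker peak and SMC#1 had none. Most *Sox1* peaks were weak. Counting strong peaks alone, the numbers became 1, 3, 1 and 3, the lines overlapped in density, and 1 SMC-only region was left, in the promoter. The local background in the window, relative to the lowest of its library, was also higher in the SMC lines, with medians of 1.92 and 1.38 against 1.09 and 1.16, and its part in the result was not tested.

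*Sox2*, a foregut and neural progenitor factor that lies within the long non-coding *Sox2ot*, showed no order between the cell types. Peaks numbered 5 in SMC#1, 22 in SMC#2, 11 in Non-SMC#1 and 14 in Non-SMC#2, and the relative densities were 0.720, 1.87, 1.24 and 1.43. The SMC lines gave the lowest and the highest value, and their mean of 1.30 ± 0.815 (SD, n = 2) was within 1 SD of the non-SMC mean of 1.33 ± 0.128 (SD, n = 2). The promoter was open in all lines, with regions about 857 bp upstream and 566 bp downstream of the start present in all 4 libraries.

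SMC-only regions around *Sox2* numbered 0 of 40. Of its 2 non-SMC-only regions, that at chr3:34743465-34744006, 93.4 kb downstream, was strong in both lines. Its fold enrichment was 16.7 in Non-SMC#1, the 99.1 percentile, and 6.84 in Non-SMC#2, the 87.7 percentile. It was the strongest peak of the window in both non-SMC lines, and its sequence above holds an AP-1 match at its left end. The strongest *Sox2* peak of SMC#2 lay 97.3 kb downstream, in that library alone.

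*Sox21*, the SoxB2 antagonist of the SoxB1 factors, had an open promoter in every line. Of its 28 regions 1 was SMC-only (3.57%, against 4.37% of all regions in the genome). Its window held 5, 16, 11 and 8 peaks in SMC#1, SMC#2, Non-SMC#1 and Non-SMC#2. Relative densities of 0.713, 1.35, 1.23 and 0.807 overlapped, with means of 1.03 ± 0.4503 (SD, n = 2) and 1.02 ± 0.301 (SD, n = 2). The peak over the start site had fold enrichments of 6.28, 10.2, 8.27 and 4.88, the 88.8, 97.6, 84.6 and 76.6 percentile of the lists, so that both SMC lines ranked it higher than both non-SMC lines. That order holds for ranks alone, which depend on the other peaks of a list. By fold enrichment Non-SMC#1 was above SMC#1.

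The SMC-only region of *Sox21* lay 6.49 kb downstream of the start, past the end of the gene, at chr14:118230168-118230953. Its fold enrichment was 11.4 in SMC#1, the strongest peak of the window there at the 98.8 percentile, and 5.54 in SMC#2, the 88.0 percentile. The sequence holds 2 SOX matches and 1 E-box. The strongest peak of SMC#2 and of Non-SMC#1 lay close to the start of another gene, *Gpr180*. Among strong peaks, of which there were 3, 6, 4 and 2, the densities of *Sox21* no longer overlapped, at 2.98 and 2.96 in SMC and 1.18 and 1.03 in non-SMC.

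Of the SoxC genes, *Sox4* had dense peaks in all lines and strong regions of both kinds. Peak counts were 18, 19, 15 and 11, and relative densities were 2.56 and 1.60 in SMC and 1.67 and 1.105 in non-SMC. SMC#2 lay just below Non-SMC#1, so the groups overlapped. With strong peaks alone they did not, at 2.97 and 2.46 against 2.35 and 1.55. These rest on 3, 5, 8 and 3 peaks, the largest count in Non-SMC#1, each count relative to the strong peaks of its list. Nor did they overlap with an equal number of leading peaks per library, at 2.56 and 1.85 against 1.70 and 1.14. The means were 2.08 ± 0.679 (SD, n = 2) and 1.39 ± 0.403 (SD, n = 2), and the difference of 0.686 was close to the pooled SD of 0.558. All 4 libraries had a peak over the start site.

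The 2 SMC-only regions of *Sox4* were at chr13:28925776-28926294, 27.8 kb downstream, and at chr13:29034130-29034815, 81.0 kb upstream. The first had fold enrichments of 7.96 and 7.87, the 94.2 and 94.5 percentile, was the strongest peak of the window in both SMC lines and holds 2 SOX matches. The strongest peak of both non-SMC lines lay a little further from the gene, 35.7 kb downstream, in the non-SMC-only region at chr13:28917007-28918331, with 11.9 and 6.45 and an AP-1 match. The remaining 2 of its 3 non-SMC-only regions, 60.6 and 79.6 kb downstream in introns of non-coding genes, reached the 92.8 and 84.3 percentile and the 88.6 and 77.3 percentile.

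*Sox11*, the other SoxC gene and one used as a neuroendocrine marker, was denser in SMC by a small margin. Its window held 9 peaks in SMC#1, 13 in SMC#2, 8 in Non-SMC#1 and 7 in Non-SMC#2, and the relative densities were 1.26, 1.07, 0.878 and 0.691. Both SMC lines were above both non-SMC lines. The means were 1.17 ± 0.129 (SD, n = 2) and 0.785 ± 0.132 (SD, n = 2), a ratio of 1.49 (log2, 0.57). The counts behind this are few.

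A broad region just upstream of *Sox11* (chr12:27342594-27343521) had a peak in 3 libraries. Its highest fold enrichment was 4.61 in SMC#1, 8.30 in SMC#2 and 9.25 in Non-SMC#1, where it was the strongest peak of the window. In Non-SMC#2 the only promoter peak lay in the coding sequence, 487 bp downstream, with 4.27, so the non-SMC lines differed from each other at this promoter. The leading SMC-only region lay 14.8 kb upstream at chr12:27356886-27357839 and was the strongest peak of both SMC lines, with 8.72 and 9.56, the 95.8 and 97.0 percentile. It was the 1 of 4 SMC-only regions of *Sox11* left when only strong peaks were merged, and its printed sequence has neither SOX nor AP-1 letters. The 3 non-SMC-only regions had mean percentiles of 65.8 or less, and 0 of them were left by the same criterion. The median local background was 2.08 times the lowest in SMC#1 and 1.00 in the other libraries, and its part in the result was not tested.

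The SoxD genes are long, and most of their regions were in introns. *Sox6*, whose product represses and co-activates other SOX factors in cartilage, muscle and the nervous system, had the largest ratio of SMC over non-SMC of the 8 genes. There were 30 peaks in SMC#1, 71 in SMC#2, 7 in Non-SMC#1 and 25 in Non-SMC#2. The relative densities were 1.14 and 1.59 in SMC against 0.208 and 0.670 in non-SMC. Both SMC lines were above the average of their lists and both non-SMC lines below it. The means of 1.36 ± 0.321 (SD, n = 2) and 0.439 ± 0.326 (SD, n = 2) gave a ratio of 3.11 (log2, 1.63), and the difference of 0.924 exceeded the pooled SD of 0.324. The log2 ratio of *Sox6* ranked at the 97.9 percentile of all genes.

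*Sox6* had 10 SMC-only regions of 111 (9.01%) and 3 non-SMC-only (2.70%). All 10 lay within the gene, from 4.86 to 538 kb downstream of the start, 9 with the summit in an intron. The leading one, chr7:115879728-115880048, had fold enrichments of 6.70 and 7.38. The next, with 5.49 and 9.32, had its summit in a coding exon (chr7:115580516-115580833) and 3 SOX matches. In all, 5 of the 10 held SOX letters and 4 an E-box.

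The order of the lines in *Sox6* density held among strong peaks, at 1.32 and 1.31 against 0.157 and 0.549, but these were 5, 10, 2 and 4 peaks and 1 SMC-only region. The log2 ratio depended on which non-SMC line was kept, at 1.03 without Non-SMC#1 and 2.71 without Non-SMC#2. The promoter region, 1.47 to 1.56 kb upstream of the start, was open in all lines and lay in an intron of *1110004F10Rik*. No peak covered the *Sox6* start, and the region also lay within 3 kb of another coding start site. Which gene it serves was not tested. The strongest peak of 3 libraries, 54.4 to 54.5 kb upstream, was in *1110004F10Rik* as well.

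*Sox5*, a partner of SOX6 in chondrocytes and a factor of cortical neurons, had the largest window, with 206 regions, and many regions of both kinds along its introns. Peaks numbered 42, 92, 68 and 72, and the relative densities of 1.06, 1.37, 1.35 and 1.28 overlapped. SMC averaged 1.22 ± 0.221 (SD, n = 2) and non-SMC 1.32 ± 0.0449 (SD, n = 2). A similar density thus went with different regions, since 11 were SMC-only (5.34%), 26 were non-SMC-only (12.6%) and 2 were open in all lines. From strong peaks alone, 4 regions were SMC-only and 15 non-SMC-only.

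The kinds lay along the gene in an uneven way. Downstream of the start, the first 10 regions of either kind, from 8.79 to 179 kb, were all non-SMC-only, and the SMC-only regions began at 229 kb, an order noticed after the values were seen. The leading SMC-only region of *Sox5*, chr6:144224086-144224618 at 558 kb, had fold enrichments of 11.1 and 14.1, the 98.6 and 99.6 percentile. That at chr6:144553253-144553798, with 7.03 and 8.37, holds 3 SOX matches. In total 7 of the 11 SMC-only regions had SOX letters and 0 had AP-1 letters.

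The leading non-SMC-only region of *Sox5*, chr6:144074704-144075366 at 707 kb, was the strongest peak of the window in both non-SMC lines, with 15.3 and 12.9, the 98.4 and 98.7 percentile. At the next, chr6:144772929-144773388 near the 5′ end, the values were 14.4 and 8.86. Both hold 2 AP-1 matches. Of the 26 non-SMC-only regions, 15 had AP-1 and 9 had SOX letters. The promoter region over the start of *Sox5* was open in all lines, with fold enrichments of 4.16, 3.67, 4.36 and 5.17.

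*Sox9*, the SoxE gene, was the member with a higher density of peaks in non-SMC. Its window held 6 peaks in SMC#1, 10 in SMC#2, 21 in Non-SMC#1 and 30 in Non-SMC#2. The relative densities were 0.849, 0.837, 2.33 and 3.002. The SMC lines were close to each other and below both non-SMC lines. SMC averaged 0.843 ± 0.00855 (SD, n = 2) and non-SMC averaged 2.67 ± 0.472 (SD, n = 2), a ratio of 3.17 of non-SMC over SMC and a log2 ratio of −1.66. The difference of −1.83 was larger than the pooled SD of 0.334, and the log2 ratio ranked at the 3.48 percentile of all genes.

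At the *Sox9* start site itself, both non-SMC lines had a broad peak, 1572 bp wide for Non-SMC#1 and 1502 bp for Non-SMC#2. The fold enrichments were 10.0 and 11.3, the 90.0 and 97.4 percentile, with pileups of 56 and 32 fragments. In SMC#2 a peak of 155 bp with a fold enrichment of 2.44 lay under it, 156 bp upstream of the start, and SMC#1 had none there. The promoter counted as open in all 4 libraries only because of such weak peaks, one of them in SMC#1 about 3 kb downstream. With only strong peaks, *Sox9* became the 1 non-SMC-only promoter of the 8 genes.

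Of the 48 regions around *Sox9*, 9 were non-SMC-only (18.8%) and 1 was SMC-only (2.08%), and 0 were open in all lines. The non-SMC-only regions spanned 44.9 kb upstream to 42.2 kb downstream. At chr11:112758052-112758791, 24.0 kb upstream in an intron of the non-coding *BC006965*, fold enrichment was 13.9 and 7.70. The region at chr11:112824182-112824545, 42.2 kb downstream, had 7.99 and 10.3 and holds 2 AP-1 matches. In all, 5 of the 9 held AP-1 letters and 4 SOX letters, and from strong peaks alone 4 regions were non-SMC-only.

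The strongest *Sox9* peak of Non-SMC#1 was 68.4 kb downstream at chr11:112850290-112851125, with a fold enrichment of 17.2 and the 99.4 percentile, where SMC#1 had a weak peak of 3.43. The SMC-only region, 53.4 kb downstream at chr11:112835431-112835716, was the strongest peak of both SMC lines with only 6.18 and 3.55. The order of the lines in *Sox9* density was kept among strong peaks, at 0.986 and 0 in SMC and 2.64 and 2.05 in non-SMC, although these rest on 1, 0, 9 and 4 peaks.

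**Figure D4:**
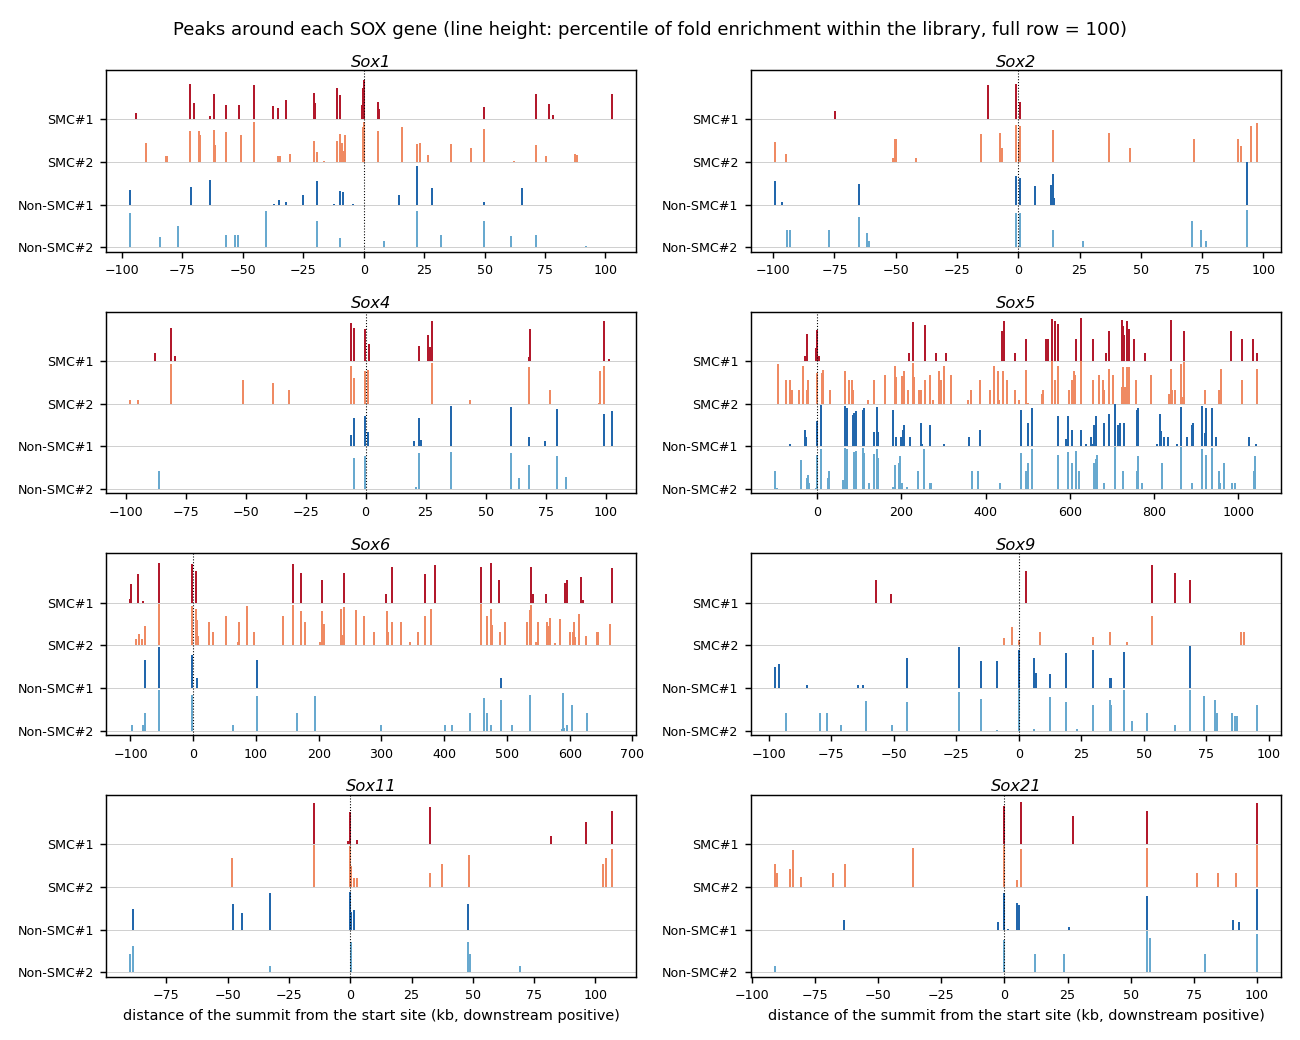
Regions with a peak around each SOX gene, 1 row per library, plotted by the distance of the region's summit from the start site in kb (dotted line, downstream positive). The height of a line is the percentile of fold enrichment within that library's list, with a full row as 100. *Sox9* is crowded in the non-SMC rows, *Sox6* in the SMC rows, and *Sox5* has peaks of both.

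**Figure D5:**
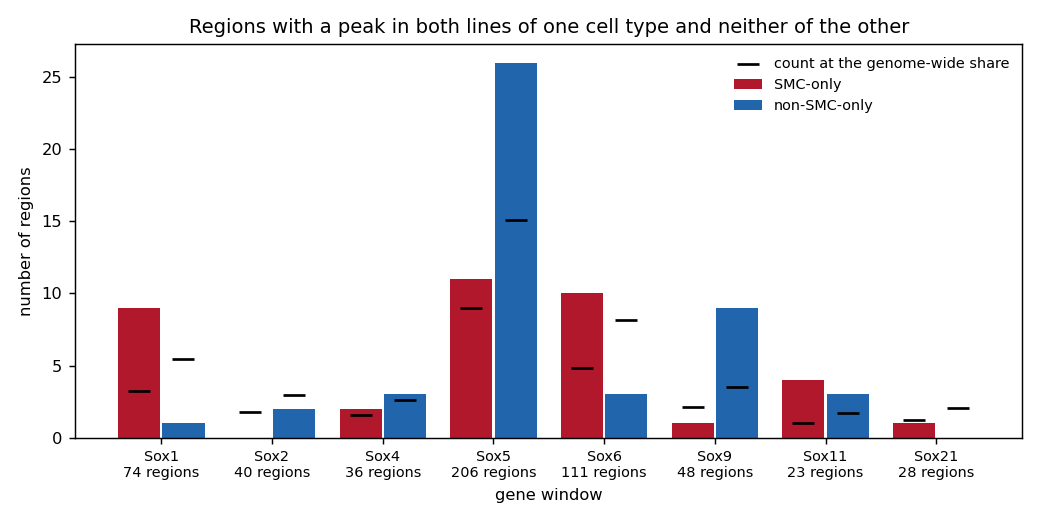
Number of SMC-only (red) and non-SMC-only (blue) regions in the window of each SOX gene, with a black mark at the count that the genome-wide shares of 4.37% and 7.33% would give for that number of regions. *Sox1* (9 and 1) and *Sox6* (10 and 3) lie above the mark for SMC-only regions alone and *Sox9* (1 and 9) above that for non-SMC-only regions alone. *Sox4* (2 and 3), *Sox5* (11 and 26) and *Sox11* (4 and 3) lie above both marks, and *Sox2* (0 and 2) and *Sox21* (1 and 0) below both.

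Across the 8 genes, the differential regions were mostly distal, as such regions were in the genome. Within 3 kb of a coding start site lay 3 of 38 SMC-only regions (7.89%, against 9.55% of the genome's) and 0 of 47 non-SMC-only regions (against 7.56%), where a count of 0 allows up to 6.38%, taken as 3 of 47, and the exact interval reaches 7.55%. By contrast, 7 of the 14 regions open in all lines did (50%, against 64.4%). Of the 3 SMC-only regions near a start, 2 flank that of *Sox1*. The broad peak of both non-SMC lines at the *Sox9* start is not among the 47, since SMC#2 had a weak peak under it. The GC content around the summit had a median of 48.3% in SMC-only, 46.3% in non-SMC-only and 59.5% in regions open in all lines.

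For the rest of the family, 12 other SOX genes (*Sox3*, *Sox7*, *Sox8*, *Sox10*, *Sox12*, *Sox13*, *Sox14*, *Sox15*, *Sox17*, *Sox18*, *Sox30* and *Sry*) held 558 regions in their windows. Of these 14 were SMC-only (2.51%, against 4.37% of all regions in the genome) and 32 were non-SMC-only (5.73%, against 7.33%). Open in all lines were 31 (5.56%, against 3.81%). The SMC lines were both higher in density (20.2% of all gene windows) for 4 of the 12 and both lower (20.2%) for 2. Of the latter, *Sox30* had relative densities of 0.979 and 0.651 in SMC and 2.69 and 2.60 in non-SMC. *Sox14* had the 1 SMC-only promoter among the 12 (3.08% of all promoters), and 2 had a promoter open in all lines (48.7% of all promoters).

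By its 4 relative densities on a log2 scale, with 0.1 added, the gene window most like that of *Sox6* was that of *Acsm2* and that most like *Sox9* was that of *Cxcl2*. *Sox1* was closest to *Ikzf4*, *Sox2* to *Mindy4b-ps*, *Sox4* to *Grp*, *Sox5* to *Skor2*, *Sox11* to *Nr4a2* and *Sox21* to *Mab21l1*. The distances were between 0.0703 and 0.286. Each was the closest of 21938 genes over 4 libraries, so close values are found for most patterns.

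Over the series, the libraries held 91118 to 154039 peaks. The lowest background pileup of a library, a stand-in for depth, was 3.37 times as high in SMC#2, 3.26 times in Non-SMC#1 and 1.40 times in Non-SMC#2 as in SMC#1, so that depth did not follow cell type but weak peaks of SMC#1 and Non-SMC#2 rest on few fragments. Strong peaks made up 14.3, 17.1, 37.97 and 19.5% of the lists in the order used above. Of the SMC markers, the promoter of *Chga* was open in the SMC lines alone, and that of *Ncam1* had a peak in all 4 libraries. *Insm1* lacked one in Non-SMC#2, *Nkx2-1* in Non-SMC#1 and *Neurod1* in SMC#1, and each had one in the other libraries. *Epcam*, an epithelial marker, had one in both SMC lines and in no non-SMC line. Both non-SMC markers (*Cd44* and *Vim*) were open in both non-SMC lines and in SMC#2, and *Vim* was open in SMC#1 as well. Of 4 leukocyte markers, 0, 1, 1 and 2 had a promoter peak. Endothelial markers had 1, 1, 1 and 2 of 2 and fibroblast markers 2, 1, 2 and 2 of 2, and what such cells contribute was not tested.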

How the data were processed

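ATAC-seq libraries of 4 cell lines were used, grouped by the titles of the samples. Per the labels, the build was mm10 and the tools were Bowtie2 v2.3.4 for mapping and MACS2 v2.1.1 for peak calling, and the methods of the study add removal of duplicates. The settings of peak calling are not given in the sources used here. Each library has its own deposited list of peaks. The deposited fold enrichment is the ratio of the summit's pileup to the local background, and the −log10 p-value and −log10 q-value are given within each library. In that ratio 1 is added to both the pileup and the background, which lowers it most where the background is low. The deposited score restates the p-value and was not used. Since these values depend on depth, they ranked peaks within a list (percentile). Fold enrichments printed for several libraries are thus not on a common scale. The cut for strong peaks was the same in every list. It was passed by 14.3% of peaks in SMC#1, 17.1% in SMC#2, 37.97% in Non-SMC#1 and 19.5% in Non-SMC#2. Results from strong peaks therefore depend on the list as well.

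Only peaks on the autosomes (1 to 19), X and Y entered the analysis. Peaks overlapping by at least 1 base were merged. Densities used 2647.5 Mb of sequence without N. Pileup and background were recovered from fold enrichment and p (a Poisson model), to within 1% for simulated peaks. These all had pileups above 5, the median in SMC#1 and Non-SMC#2, so that accuracy was not tested for lower pileups. Overlaps, recovery and motif counts were tested on simulated data and against bedtools v2.31.1. Analyses used Python v3.11.15, pandas v2.3.3, scipy v1.17.1 and samtools v1.23.1. Intervals cover counting error only.

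The 8 genes, the other SOX genes, the markers and the motifs were chosen with earlier results of these data known. One marker is not reported here. Named regions are, for each gene, up to 3 SMC-only and 3 non-SMC-only regions with the highest mean percentile, the strongest peak per list and promoter peaks. The design text calls the lines paired but does not say that equal numbers mark a pair. Deviations of line 1 from its group mean correlated with r = 0.11 between the cell types, over 19216 gene windows. The reported ratios of group means used no block. Other settings tried were strong peaks alone (−log10 q of 5 or more), an equal number of leading peaks per library (91057), windows of 50 and 200 kb, an overlap of 50% of the shorter peak, the share of bases, promoters of 1 kb, all transcripts, motif distances of 50 and 250 bp and leaving out each library.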

Additional observations from a re-analysis of the deposited data

Results flagged for a closer look

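For 3 of the 8 SOX genes, the log2 ratio of relative peak density, SMC over non-SMC, had opposite signs in line pair 1 and line pair 2, which pair the lines by their number. It was −0.79 and 0.39 at *Sox2*, −0.35 and 0.10 at *Sox5*, and −0.79 and 0.74 at *Sox21*. Each pair is 1 library against 1, so the difference between pairs was not tested. In all 3 genes SMC#1, the library with the fewest peaks, gave the lowest of the 4 densities. The other 5 genes had the same sign in both pairs.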

How the results depend on the processing

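The signs at *Sox1*, *Sox4*, *Sox6*, *Sox9* and *Sox11* were the same in 10 of 10 alternatives, while those of *Sox2*, *Sox5* and *Sox21*, all near 0, changed in 5, 2 and 5. Counts of regions depended most on the strength of peaks and on requiring both lines. With only strong peaks (−log10 q of 5 or more) there were 10 SMC-only, 24 non-SMC-only and 3 shared regions. Of the promoters, 1 was then non-SMC-only, and the AP-1 share of non-SMC-only regions was 83.3%. Genome shares at that setting are not given, here or for single genes. Leaving out each library gave 42 to 231 SMC-only regions (231 without SMC#1 and 106 without SMC#2), 49 to 147 non-SMC-only (147 without Non-SMC#1 and 115 without Non-SMC#2) and 16 to 24 shared (24 without SMC#1), since 1 line then decided a kind. The median log2 ratio then ranged from 0.18 to 0.55, the highest without Non-SMC#1. The AP-1 share of non-SMC-only regions ranged from 23.8 to 53.1%, the lowest without Non-SMC#1 and 30.4% without Non-SMC#2. Those motif shares by library were added after seeing the data. Windows of 200 kb gave 76 non-SMC-only regions. Within 50 bp of the summit the SOX share of SMC-only regions was 26.3% and the AP-1 share of non-SMC-only regions 34.0%, and within 250 bp the SOX shares were 71.1% and 55.3%. With the line pairs as a replicate block, the median log2 ratio was 0.27 against 0.29, and among single genes the block turned the sign at *Sox21* alone (−0.02 against 0.02). Groups of 2 libraries limit all values, and weak peaks in the shallow libraries rest on few fragments.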
